A study of Arabidopsis thaliana with 6 samples.

Results

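BASL, POLAR and the 5 BREVIS RADIX genes encode proteins that gather on 1 side of a plant cell, and they were followed here while the stomatal regulator MUTE was switched on in Arabidopsis thaliana seedlings. The members were chosen by name: the rows of BASL and POLAR, and the rows of BRX, BRXL1, BRXL2, BRXL3 and BRXL4 by locus or symbol. All 7 were found among 33511 rows. All seedlings had the Col-0 background and were homozygous for a MUTE cDNA in pER8, an inducible plasmid whose own activator protein turns on the insert once estradiol is present. Seedlings aged 4 days spent 8 h in liquid medium with 10 µM estradiol or with its solvent DMSO (mock), as pools of 40 to 50 seedlings per replicate and 3 libraries per group. The number of independent lines is not given, and all 6 libraries carry the construct, so that effects of MUTE, of estradiol and of the activator cannot be told apart. RNA came from whole seedlings, in which fewer cells of a type and less RNA per cell cannot be told apart.

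Stomata arise from asymmetric divisions in the epidermis, in which a small meristemoid is set apart from a larger sister cell. BASL forms a crescent at the edge of the dividing cell and, as a scaffold, binds the kinase YODA (YDA) and its downstream MAP kinases. POLAR follows the same side of the cell and holds the GSK3-like kinase BIN2 at the membrane. BREVIS RADIX (BRX) is best known from the root, where it sits at the rootward side of protophloem cells, and BRX family proteins also join BASL at the crescent. MUTE is a bHLH transcription factor that ends the asymmetric divisions and starts the final symmetric one. bHLH proteins as a class bind the E-box, CANNTG.

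The DNA before the gene starts is shown for the genes that rose, since MUTE is a DNA-binding protein. The sequences come from the RefSeq assembly TAIR10.1, and the submitters' processing notes name TAIR10. POLAR (AT4G31805) lies at chr4:15385280-15387097 on the plus strand in 3 exons. The annotation names AT5G10890, at chr5:3433742-3435287 on the minus strand, as its best protein match in Arabidopsis, and names POLAR as the best match of AT5G10890. The windows below are written 5′ to 3′ and end at the last base before the annotated start. That of POLAR is chr4:15385101-15385279, 179 bases, because the gene model of WRKY18 ends there. That of AT5G10890 is chr5:3435288-3435537, 250 bases. Capitals mark stretches of at least 12 bases found in both windows.
POLAR: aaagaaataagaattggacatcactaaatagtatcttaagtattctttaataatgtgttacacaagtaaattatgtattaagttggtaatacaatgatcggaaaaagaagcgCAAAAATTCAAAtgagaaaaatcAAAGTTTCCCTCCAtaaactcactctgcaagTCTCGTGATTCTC
AT5G10890: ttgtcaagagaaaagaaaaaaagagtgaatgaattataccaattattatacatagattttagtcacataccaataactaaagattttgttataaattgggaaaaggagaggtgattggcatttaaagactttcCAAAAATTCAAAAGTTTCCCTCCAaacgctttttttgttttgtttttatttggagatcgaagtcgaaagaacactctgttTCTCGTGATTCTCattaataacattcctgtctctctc

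The longest shared stretch, AAAGTTTCCCTCCA, has 14 bases. It began 44 bases before the start of POLAR and 107 bases before that of AT5G10890. On either strand it occurred in 3 of 27444 windows of 250 bases before protein-coding genes (0.0109%). TCTCGTGATTCTC, 13 bases, occurred in 2 windows (0.00729%), and CAAAAATTCAAA, 12 bases, in 33 (0.120%). Each count includes the windows of POLAR and AT5G10890, and the 2 windows of the 13-base stretch are this pair. The stretches were chosen for lying in both windows, so the small counts do not test a link between the genes. The stretches were found after the change of both genes was known, and the letters alone do not show that a protein binds there.

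BASL (AT5G60880) lies at chr5:24488289-24489836 on the minus strand, and the 250 bases before its start are chr5:24489837-24490086. BRXL2 (AT3G14000) lies at chr3:4630865-4634081 on the minus strand, and its window is chr3:4634082-4634331. It was the BREVIS RADIX gene called higher, by a small change whose call was lost when some single libraries were left out. Capitals here mark E-boxes.
BASL: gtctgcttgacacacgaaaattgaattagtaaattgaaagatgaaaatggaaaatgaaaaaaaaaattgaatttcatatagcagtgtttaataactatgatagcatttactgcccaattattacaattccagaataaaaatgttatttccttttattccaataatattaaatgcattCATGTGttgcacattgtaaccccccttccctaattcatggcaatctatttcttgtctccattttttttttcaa
BRXL2: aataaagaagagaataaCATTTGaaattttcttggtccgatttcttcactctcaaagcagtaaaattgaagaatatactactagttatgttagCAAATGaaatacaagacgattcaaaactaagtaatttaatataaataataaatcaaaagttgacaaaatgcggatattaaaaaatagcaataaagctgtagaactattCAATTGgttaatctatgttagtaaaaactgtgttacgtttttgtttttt

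The E-box CANNTG, which reads the same on both strands in its fixed letters, occurred 1 time in the BASL window, 3 times in that of BRXL2 and 1 time in the 179 bases of POLAR, where CAAATG spans bases 59 to 54 before the start. It did not occur in the windows of AT5G10890, BRX or BRXL4 and occurred 1 time before BRXL1. At least 1 E-box was present in 55.3% of the 27444 windows of 250 bases and in 43.5% of windows of 179 bases. BRXL3 was left out, since a neighbouring gene model ends 12 bases before its start.

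Values are FPKM, fragment numbers divided by transcript length and by library size, as the authors deposited them. Estimated from steps between low values, relative depth was 41.2% of mock 1 for estradiol 1 and 54.0% for estradiol 3, and 82.9% to 98.6% for the other libraries, each uncertain by a factor of 2. The absolute depth is unknown, and intervals for counting error are left out. Estradiol 1 stood apart on the second principal component (10.2% of the variance, -13.3 against 4.03 and 9.42 for the other estradiol libraries). MUTE, the induced gene, was at 1.89 to 3.31 FPKM in mock and at 2946 to 3049 FPKM in estradiol libraries, as the labels say. Its log2 fold change was 9.82 (SE 0.138). Replicates are separate pools of seedlings, and p-values measure the spread between them.

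Changes were tested as log2(FPKM + 1) with limma over 19134 genes that reached 1 FPKM in at least 3 libraries, with Benjamini-Hochberg adjustment and a threshold of 0.05. Fold changes on this scale understate the change of low genes. Of all tested genes 36.2% passed, 23.3% higher and 12.9% lower with estradiol. Of the 6 members tested, 3 were called higher (POLAR, BASL and BRXL2) and 1 lower (BRXL4). BASL passed the filter only through its estradiol libraries and BRX only through its mock libraries, so that this count is no support for the group. Without a filter all 7 members were tested, and the counts were again 3 higher and 1 lower, where 24.0% of 26727 genes were called, 14.9% higher and 9.12% lower. By the values alone, 3 members had all estradiol libraries above all mock libraries, 2 had them below, and 2 overlapped. Over the 26727 genes 40.2% did not overlap, 25.7% higher and 14.5% lower, and over the tested genes 51.0%, 33.7% and 17.4%.

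**Figure D1:**
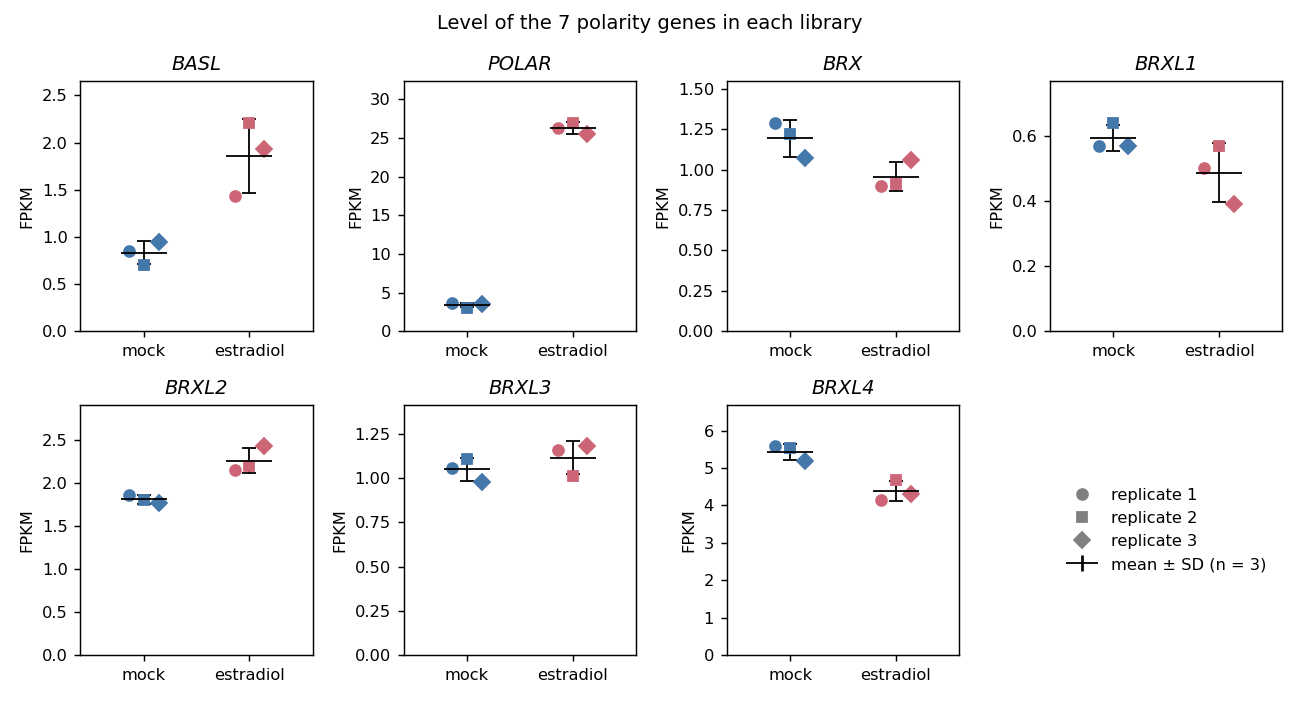
FPKM of the 7 genes (vertical axes, each from 0) in the 3 mock and 3 estradiol libraries. Points are libraries, with a shape for each replicate number, and bars give the mean ± SD. Groups do not overlap for POLAR, BASL, BRXL2, BRXL4 and BRX, and overlap for BRXL3 and BRXL1.

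POLAR was the most changed member. It stood at 3.64, 3.04 and 3.46 FPKM in mock 1, 2 and 3, and at 26.31, 26.98 and 25.46 FPKM in estradiol 1, 2 and 3. The groups were far apart, and the 3 estradiol values lay close together. The mean was 3.38 ± 0.308 FPKM (SD, n = 3) in mock and 26.3 ± 0.762 FPKM with estradiol, a ratio of means of 7.77. The log2 fold change of 2.64 (SE 0.0569, limma adjusted p 1.69e-07) was the 4th highest of the 19134 tested genes. Rises of at least 2-fold in FPKM + 1 that passed the threshold were made by 0.387% of tested genes. This leaves out low genes with 2-fold rises in FPKM alone. POLAR went from a level above 25.5% of tested genes in mock to one above 83.1% of them with estradiol. It moved from below BRXL4 to the highest of the 7.

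The last 310 bases of the POLAR gene model overlap AT4G31810 on the other strand. The libraries were stranded, but the strand setting of the authors' quantification is not given in the sources used here. AT4G31810 was at 17.5 to 18.7 FPKM in mock and 16.2 to 18.7 in estradiol libraries, and its groups overlapped (log2 fold change -0.08, limma adjusted p 0.294), and it passed as lower only without estradiol 3 (adjusted p 0.0490). WRKY18, a transcription factor gene that ends 179 bases upstream, was at 4.95, 4.64 and 4.06 FPKM in mock and 3.36, 3.23 and 3.16 FPKM with estradiol. It fell (log2 fold change -0.38, SE 0.0666, limma adjusted p 0.0034), so that the nearest upstream gene moved opposite to POLAR.

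AT5G10890, the relative of POLAR by the annotation, was at 0.70, 0.77 and 1.07 FPKM in mock and at 3.19, 3.87 and 3.68 FPKM in estradiol libraries. Every estradiol value was above every mock value. The log2 fold change was 1.31 (SE 0.0918, limma adjusted p 4.91e-05), with a ratio of means of 4.23. It kept its call under the 14 alternatives in which it was tested, with adjusted p up to 0.000996. Like BASL it passed the filter only because of its estradiol values. It shared no 50-base stretch with POLAR or any other place in the genome. AT5G10880, which overlaps 126 bases of its model, was below the filter, at 0.20 to 0.48 FPKM in mock and at least 0.52 FPKM in each estradiol library.

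BASL was a low gene in whole seedlings. Its values were 0.85, 0.70 and 0.95 FPKM in mock and 1.43, 2.21 and 1.93 FPKM with estradiol. The groups did not overlap, and estradiol 1, the library of lowest estimated depth, was the lowest of its group. The means were 0.833 ± 0.126 and 1.86 ± 0.395 FPKM (SD, n = 3), a ratio of 2.23. The log2 fold change was 0.63 (SE 0.108, limma adjusted p 0.00308), and 2.84% of tested genes had a larger absolute change. It rose without any single library, by 0.54 to 0.74 with adjusted p up to 0.0135, and by 0.81 (adjusted p 0.00398) with estradiol 2 as the only estradiol library.

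**Figure D2:**
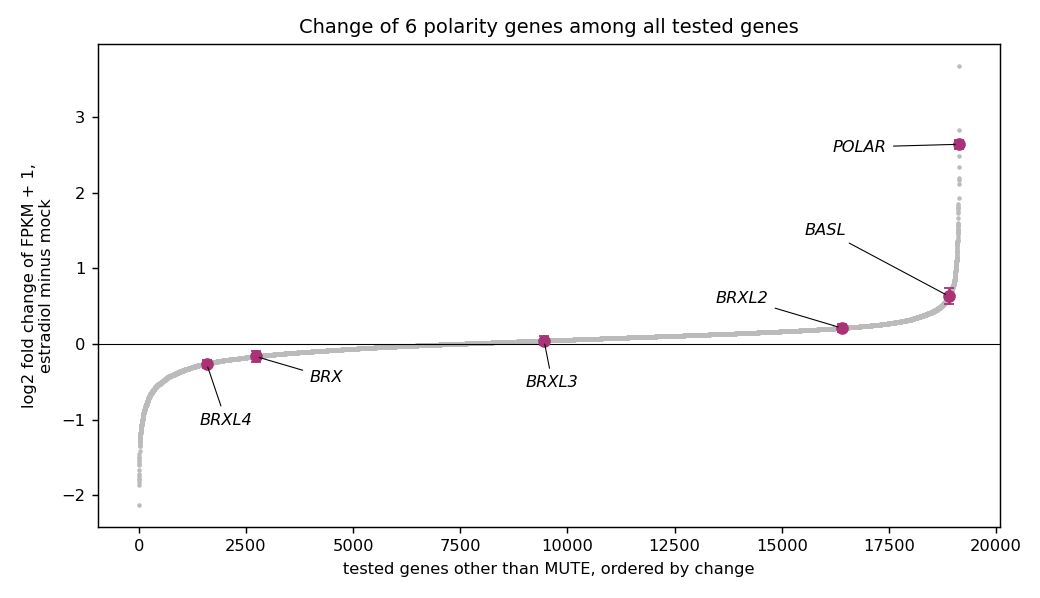
Log2 fold change of FPKM + 1, estradiol minus mock (vertical axis), of all tested genes other than MUTE, in order of their change (horizontal axis). Coloured points with bars are the 6 tested members with their SE. POLAR lies at the upper end at 2.64, BASL at 0.63 on the upper bend, and the tested BREVIS RADIX genes between -0.26 and 0.21.

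BASL and POLAR changed by different amounts. The ratio of POLAR to BASL in FPKM, which is per length, was 4.28, 4.34 and 3.64 in mock 1, 2 and 3. It was 18.4, 12.2 and 13.2 in estradiol 1, 2 and 3, above every mock ratio. On the scale of the test, the difference between the log2 levels of the genes grew by 2.01, from 1.26 ± 0.0668 to 3.26 ± 0.199 (SD, n = 3). The two-sided exact permutation test, with 20 possible label orders, gave p = 0.1, the smallest this design allows.

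The BREVIS RADIX genes made up a family with small changes of either sign. BRXL4 (AT5G20540, listed as ATBRXL4; chr5:6947789-6952038, plus strand) was the highest of them. Its values were 5.58, 5.53 and 5.19 FPKM in mock and 4.15, 4.67 and 4.31 FPKM with estradiol, without overlap. It fell, with a log2 fold change of -0.26 (SE 0.0539, limma adjusted p 0.00747). It kept the call without any single library (adjusted p up to 0.0303) but not with estradiol 2 as the only estradiol library (-0.18, adjusted p 0.138).

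BRXL2, listed by its locus AT3G14000, was at 1.86, 1.80 and 1.76 FPKM in mock and at 2.15, 2.19 and 2.42 FPKM in estradiol libraries. The groups did not overlap, although the gap between them was 0.29 FPKM. The log2 fold change was 0.21 (SE 0.0577, limma adjusted p 0.0223). The call was lost without mock 2 (adjusted p 0.0650), mock 3 (0.0655) or estradiol 3 (0.0647) and with estradiol 2 alone (0.161), in a range over the alternatives from 0.0113.

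BRX itself (AT1G31880; chr1:11445490-11450232, plus strand) was at 1.29, 1.22 and 1.07 FPKM in mock and at 0.90, 0.91 and 1.06 FPKM with estradiol. The groups were separated by 0.01 FPKM, the last decimal of the table, and did not pass the test (log2 fold change -0.16, SE 0.0699, limma adjusted p 0.10). Of its 50-base exon stretches 14.1% also occurred in AT2G21030, so that its values are uncertain. AT2G21030 was at 0.57 to 0.85 FPKM in mock and 0.50 to 0.59 FPKM with estradiol. None of the other members shared a 50-base stretch with another place in the genome.

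BRXL3 (AT1G54180, listed as ATBRXL3; chr1:20227168-20230237, plus strand) was at 1.06, 1.11 and 0.98 FPKM in mock and at 1.16, 1.01 and 1.18 FPKM with estradiol. The groups overlapped and the test was not passed (log2 fold change 0.05, SE 0.0654, limma adjusted p 0.619). BRXL1 (AT2G35600, listed as ATBRXL1; chr2:14940774-14945357, minus strand) was the lowest member and below the filter. It stood at 0.57, 0.64 and 0.57 FPKM in mock and at 0.50, 0.57 and 0.39 FPKM with estradiol, and the groups met at 0.57. Without a filter its log2 fold change was -0.10, with a limma adjusted p of 0.211. It ranged from -0.05 without estradiol 3 to -0.14 without estradiol 2, and was -0.02 with estradiol 2 as the only estradiol library. By the annotation BRX and BRXL1 are each other's best match, as are BRXL2 and BRXL3.

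**Figure D3:**
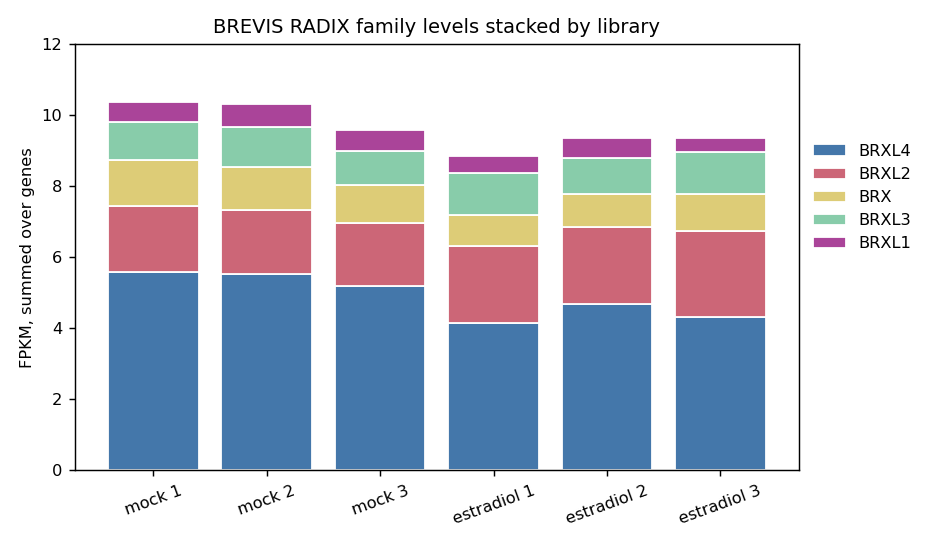
FPKM of the 5 BREVIS RADIX genes stacked in each of the 6 libraries (vertical axis from 0). The summed height lies between 9.57 and 10.36 FPKM in mock and between 8.86 and 9.36 FPKM in estradiol libraries, with a smaller BRXL4 and a larger BRXL2 segment.

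The summed level of the family was 10.36, 10.30 and 9.57 FPKM in mock and 8.86, 9.35 and 9.36 FPKM with estradiol, with means of 10.1 ± 0.440 and 9.19 ± 0.286 (SD, n = 3). BRXL4 made up 53.7% to 54.2% of the sum in mock and 46.0% to 49.9% with estradiol. BRXL2 made up 17.5% to 18.4% in mock and 23.4% to 25.9% with estradiol. BRXL3 made up 10.2% to 10.8% in mock and 10.8% to 13.1% with estradiol, where its lowest share, in estradiol 2, was 10.80% and its highest mock share 10.78%. The shares of these 3 genes thus did not overlap between groups, and those of BRX (means of 11.8% and 10.4%) and BRXL1 (5.89% and 5.30%) did. Shares of the same sum do not move independently, since a smaller BRXL4 share makes the others larger. In FPKM the groups of BRXL3 overlapped. This count of shares is therefore no further result.

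BRXL2 was set against BRX within each library. Their ratio in FPKM was 1.44, 1.48 and 1.64 in mock and 2.39, 2.41 and 2.28 with estradiol, without overlap. The difference of their log2 levels grew by 0.38, with a two-sided exact permutation p of 0.1, again the smallest possible. For BRXL2 every estradiol value was above every mock value, and for BRX every one was below. The separation of the ratios and this p were therefore fixed by the values of each gene, and add no support. Because BRX shares stretches with AT2G21030, this ratio carries the same uncertainty as the BRX values.

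In mock libraries the order of the 7 levels from the top was BRXL4, POLAR, BRXL2, BRX, BRXL3, BASL and BRXL1. Neighbours in this order did not overlap except BRX and BRXL3. With estradiol the order was POLAR, BRXL4, BRXL2, BASL, BRXL3, BRX and BRXL1, where BRXL2 overlapped BASL and BRXL3 overlapped BRX. Apart from POLAR with estradiol, no member reached 6 FPKM in any library.

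**Figure D4:**
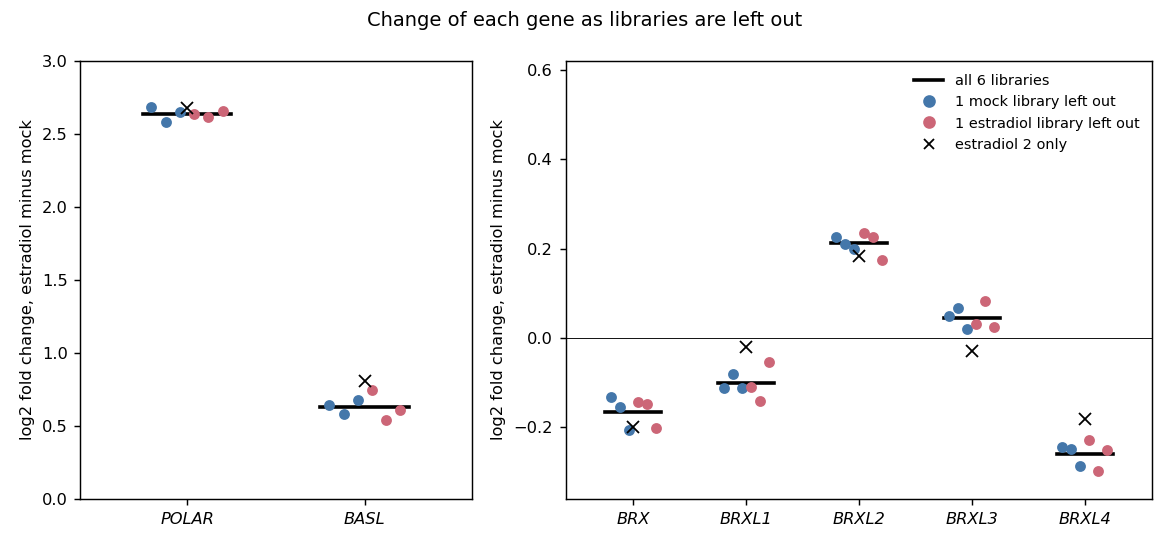
Log2 fold change of FPKM + 1 of each member (vertical axes, with different scales for POLAR and BASL on the left and the BREVIS RADIX genes on the right). Black lines use all 6 libraries, coloured points leave out 1 library, and crosses keep estradiol 2 as the only estradiol library. POLAR stays between 2.58 and 2.68 and BASL between 0.54 and 0.81, and BRXL3 crosses 0 at -0.03 with estradiol 2 alone.

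Other genes of the polarity machinery were taken from 4 lists. Of 33 listed genes 32 were paired with a row, 25 were tested, and 9 passed as higher and 3 as lower, beside 23.3% and 12.9% of all tested genes. The 9 include AT5G10890, which passed the filter through its estradiol libraries, so that this count is no support either. Without a filter 8 of the 32 paired genes were higher and 3 lower, beside 14.9% and 9.12% of 26727 genes. The median log2 fold change was 0.12 over the 25 genes and 0.05 over all tested genes. BAM3, a receptor kinase of the protophloem, could not be paired, since its name belongs to more than 1 locus.

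The first list held 13 genes, which are partners of BASL and POLAR and, as the relative of POLAR, AT5G10890. Of 12 tested, 6 were higher, AT5G10890 among them, and 0 lower, beside 23.3% and 12.9% of all tested genes. The median was 0.14, and 6 did not pass. BIL1 (listed as ASKdZeta), a GSK3-like kinase related to BIN2, was at 39.1 ± 0.984 FPKM in mock and 47.7 ± 0.641 FPKM with estradiol (SD, n = 3) and rose by 0.28 (limma adjusted p 0.000526). MPK6 (ATMAPK6), a MAP kinase that acts below YDA, rose by 0.25 and its activator MKK5 (ATMEK5) by 0.22 (limma adjusted p 0.00207 and 0.00882). MKK5 lost its call only with estradiol 2 as the only estradiol library (adjusted p 0.165). YDA (EMB71), the kinase bound by BASL, rose by 0.16 (limma adjusted p 0.0160), and BSL1, a phosphatase of the BSU1 family, by 0.13 (limma adjusted p 0.0237). BSL1 lost its call under 7 of 15 alternatives, with adjusted p up to 0.126, among them both scalings, and YDA lost it without mock 2 and with estradiol 2 alone (up to 0.116).

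BIN2 (ATSK21), the kinase that POLAR holds at the membrane, was at 33.21, 32.50 and 30.56 FPKM in mock and 34.06, 33.62 and 33.17 FPKM with estradiol. The groups overlapped and BIN2 did not pass (log2 fold change 0.07, limma adjusted p 0.217). MPK3 (ATMPK3), the close relative of MPK6, had a log2 fold change of -0.14 with a limma adjusted p of 0.0741, above the threshold, and it passed as lower under 4 alternatives, both scalings included. BIL2 (ATSK2-3) did not pass either (0.13, limma adjusted p 0.0643).

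The second list held 9 PRAF genes, whose proteins combine RCC1 repeats, a FYVE domain and a BRX domain. Of 5 tested, 2 were higher and 0 lower, beside 23.3% and 12.9% of all tested genes, with a median of 0.12. The counts of this short list and of those that follow are no result about the lists. AT5G42140 was at 5.04 ± 0.291 FPKM in mock and 5.94 ± 0.0569 FPKM with estradiol (SD, n = 3; log2 fold change 0.20, limma adjusted p 0.0153), and it lost the call only with estradiol 2 as the only estradiol library (0.141). PRAF1 (AT1G76950) passed at 0.16 (limma adjusted p 0.0424) but lost the call under 9 of 15 alternatives, with adjusted p up to 0.222. AT5G12350 (0.12), AT5G19420 (0.09) and AT1G65920 (-0.08) did not pass.

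The third list held genes that act with BRX in the protophloem, the first sieve tissue of the root. Of 5 tested, 0 were higher and 2 lower, beside 23.3% and 12.9% of all tested genes, with a median of -0.07. PAX (AT2G44830), an AGC kinase that works with BRX on auxin efflux, was at 9.21, 9.03 and 8.25 FPKM in mock and 6.27, 6.89 and 7.35 FPKM with estradiol. It fell without overlap (limma adjusted p 0.00532, with a log2 fold change of -0.33 and an SE of 0.0631) and kept its call under all 15 alternatives. CVL1, a phosphoinositide 5-phosphatase, fell by 0.19 on the log2 scale (limma adjusted p 0.0338) and lost the call under 7 of 14 alternatives, with adjusted p up to 0.312. Its relative CVP2 (-0.07), OPS (-0.02) and MAKR5 (0.06) did not pass.

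The fourth list held the 5 SOSEKI genes, whose DUF966 proteins mark cell edges. Of 3 tested, 1 was higher and 1 lower, beside 23.3% and 12.9% of all tested genes. SOK2 (AT5G10150) was at 6.89, 7.03 and 6.87 FPKM in mock and 4.35, 4.89 and 4.70 FPKM with estradiol, and fell by 0.49 on the log2 scale (SE 0.0493, limma adjusted p 0.000261), with the call kept under all 15 alternatives. SOK5 (AT5G59790) rose by 0.26 (limma adjusted p 0.0184) and lost the call under 3 of 14 alternatives, without mock 1, mock 3 or estradiol 2 (adjusted p up to 0.0630). SOK3 (-0.14) did not pass, although it was called lower with both scalings and without estradiol 2. SOK1 and SOK4, below the filter, had means of 0.250 and 0.527 FPKM in mock and 0.240 and 0.977 FPKM with estradiol.

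**Figure D5:**
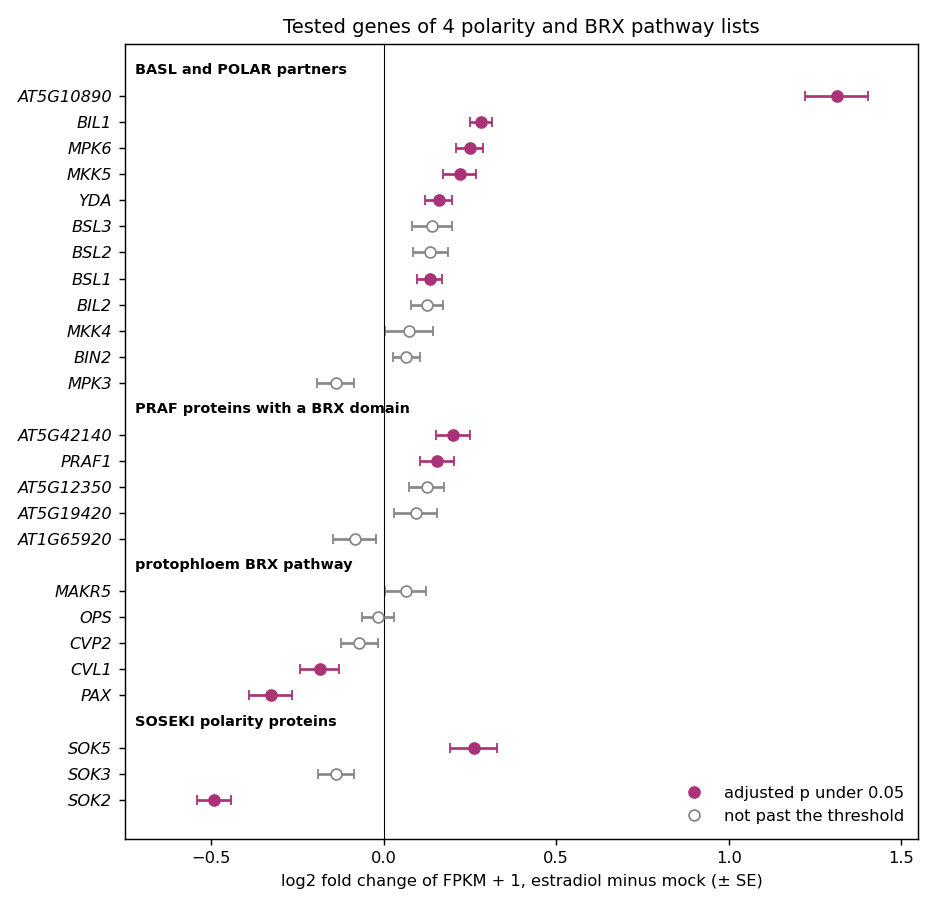
Log2 fold change of FPKM + 1, estradiol minus mock (horizontal axis, ± SE), of the 25 tested genes of the 4 lists. Filled points have a limma adjusted p under 0.05. AT5G10890 at 1.31 lies apart from the other genes, which range from -0.49 (SOK2) to 0.28 (BIL1).

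The genes most like POLAR were sought by the distance over the 6 libraries between log2 profiles centred on each gene's mock mean. The nearest were AT3G26960 (distance 0.335) and AT1G51405 (0.536). They were followed by TMM (listed as AtRLP17, 0.792), AT1G12845 (0.903) and AT4G18970 (1.25). TMM, the receptor-like protein of the stomatal lineage, was at 10.1 ± 0.385 FPKM in mock and 50.1 ± 1.30 FPKM with estradiol (SD, n = 3). Only 1 tested gene, AT3G26960, lay within 0.5 of POLAR, whereas 461 genes lay within 0.5 of BASL. The 5 nearest to BASL were AT3G15550 (distance 0.138), AT1G55450 (0.174), AT1G12330 (0.189), AT1G20590 (0.193) and AT5G66800 (0.195). Their log2 fold changes ran from 0.57 to 0.68. The distance between centred profiles depends largely on the size of the change. The numbers of near genes and the fold changes of the neighbours therefore follow from the changes of POLAR and BASL. These distances describe the libraries and were not tested.

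Markers of the tissues were present in every library, and no paired marker was listed at 0. The 3 paired epidermis markers of 5 summed to 143 to 158 FPKM in mock and 233 to 265 FPKM with estradiol, with PDF1 at 104 ± 8.08 and 206 ± 16.4 FPKM (SD, n = 3) as the only one that rose. ATML1 was at 10.4 FPKM in both groups, and CER5 (listed as ABCG12) fell from 37.7 ± 0.827 to 29.7 ± 1.32 FPKM (SD, n = 3). The 5 guard cell markers summed to 33.1 to 35.0 and 30.4 to 34.1 FPKM, with overlap, and 1 of them, GC1, fell (19.5 ± 0.647 and 16.6 ± 1.24 FPKM, SD, n = 3). The 6 phloem markers summed to 62.5 to 65.8 and 61.8 to 66.7 FPKM, with overlap, and none of the 4 tested was called. The 4 root hair markers, of which 3 fell, summed to 102 to 112 FPKM in mock and 56.9 to 65.2 FPKM with estradiol. Most of this sum was PRP3 (80.7 ± 4.56 and 42.4 ± 5.77 FPKM, SD, n = 3). The 2 endodermis markers, which both rose, summed to 17.0 to 17.8 and 21.7 to 22.1 FPKM. The 4 paired mesophyll markers of 5 summed to 7982 to 8534 and 8028 to 8295 FPKM, most of it RBCS1A, which did not pass, while the other 3 fell: RCA (766 and 585 FPKM), CA1 (430.2 and 289 FPKM) and GAPA (1064 and 947 FPKM). Of all tested genes 23.3% were called higher and 12.9% lower, and these short marker lists do not make such counts a result. The part of tissue make-up in the changes of the members was not tested.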

How the data were processed

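The deposited table holds FPKM values, scaled by the authors for transcript length and library size, with 1 row per gene name and 2 decimals. The submitters' processing notes name TopHat2 2.0.13, DESeq2 and build TAIR10, without roles. The quantifier, the annotation and its strand setting are not given in the sources used here. A further deposited column, 1 in number, had a heading that named no sample or measure, and it was not used. Names were paired with loci through RefSeq TAIR10.1 for 96.8% of rows, and the gene models, upstream windows and repeated stretches come from that assembly.

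Genes with at least 1 FPKM in at least 3 libraries entered a two-sided limma fit (limma 3.58.1, R 4.3.3) of log2(FPKM + 1) on group alone, with a trend in eBayes. Simulated data with the spread of the real genes gave back 84.0% of genes changed by 0.5 (log2), 97.9% by 1 and 99.5% by 2 among 19134, with 4.57% false calls. Far fewer genes were changed there than were called in the data, so these shares need not hold for the data. Changes as small as those of the BREVIS RADIX genes were not simulated. Relative depth was the most frequent ratio to mock 1 among values of 0.1 to 3 FPKM in rows with a 0. On simulated data 38 of 50 such estimates lay within 0.05 (log2) and 12 were off by a factor of 2. Other steps used pandas 2.3.3, numpy 2.4.6 and matplotlib 3.10.9 under Python 3.11.15.

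Members, lists and tests were chosen with earlier results of these data known. Named genes are the members, MUTE, list genes that passed the test, up to 3 further genes of each list by highest mean FPKM, the 5 nearest profiles of POLAR and of BASL, and, chosen after seeing the data, the neighbours of POLAR and AT5G10890 and the gene that shares stretches with BRX. Alternatives were another pseudocount (0.1), no filter and one at 5 FPKM, 2 scalings, eBayes without a trend, a replicate block, leaving out libraries and, added after seeing the data, library weights. When libraries were left out, the tested genes stayed the same.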

Additional observations from a re-analysis of the deposited data

How the results depend on the processing

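POLAR and BASL kept their direction and call wherever an alternative tested them, at 2.58 to 2.92 and 0.54 to 1.06 (log2), with adjusted p up to 5.49e-05 and 0.0135. MUTE ran from 9.53 to 10.29. BASL, BRX, BRXL2 and BRXL3 had no value with the filter at 5 FPKM, where 1 member, POLAR, was called higher and 1, BRXL4, lower. POLAR passed that filter only through its estradiol libraries and BRXL4 only through its mock libraries, so these calls are no further support. Of 12301 genes tested there, 3726 were called higher and 1979 lower. With estradiol 2 as the only estradiol library 3230 genes passed, 0 members were lower, 4 list genes were higher, BRXL3 changed sign (-0.0279), and BRXL2 (0.185) and BRXL4 (-0.182) lost the threshold. That fit has fewer samples by construction, and the lone library is assumed to vary like the mock ones. Leaving out 1 library gave 5337 to 5794 genes past the threshold, 2 to 3 members higher, 1 lower, 6 to 9 list genes higher and 2 to 5 lower, BRXL2 at 0.176 to 0.235, BRXL4 at -0.298 to -0.229 and BRXL3 at 0.0209 to 0.0826. With the pseudocount of 0.1, which enlarges changes of low genes by construction, BRXL1 was at -0.251 and the BRXL2 to BRX difference at 0.593. List genes called lower numbered 5 with median-of-ratios size factors and 5 under quantile scaling, and calls over all genes were then 47.9% and 52.8% higher, against 64.3%. Replicate numbers did not pair the libraries (correlations of deviations -0.00638, 0.0474 and -0.00197). With the replicate block 6038 genes passed, and BRXL2, at 0.212, missed the threshold (adjusted p 0.0515). Causes were not tested. Of 214 combinations of a result and an alternative, 198 kept their direction and side of the threshold or, for counts, lay within 1.5 times the reported count and, for untested values, within the spread between replicates. Depth limits the low members most: BASL, BRX, BRXL1, BRXL2 and BRXL3 had group means near or below 2 FPKM, and the lowest depth estimates, each uncertain by a factor of 2, belong to estradiol 1 and 3.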
